A study of Homo sapiens with 2 samples.

Results

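Transcripts of 9 complement and acute-phase genes, C3, CFB, C1R, C1S, LCN2, SAA1, SAA2, CD55 and CD59, were read in 2 gastric cancer cell lines after knockdown of SET7/9. All gene probes that carried one of these names were taken, which gave 13 of the 34127 gene probes on the array. The genes were selected on biological role with their measured knockdown ratios and Cy3 control levels already known, so those values are given as a description and were not tested. MKN74 and MKN45 cells were electroporated with 50 nM of a SET7/9 siRNA or of a negative control siRNA, and RNA was taken after 48 hrs. One two-colour array was hybridised per cell line, with SET7/9 siRNA RNA in Cy5 and negative control RNA in Cy3 on both arrays and no dye swap. A dye effect and a knockdown effect therefore cannot be told apart, and neither can a difference between the cell lines and a difference between the arrays. Which of the study's SET7/9 siRNAs was hybridised was not given in the sources used here.

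Complement is a cascade of plasma proteases and binding proteins. The proteases C1R and C1S start the classical pathway, CFB supplies the protease of the alternative pathway, and both pathways meet at C3, whose cleavage marks surfaces for uptake and leads to the membrane attack complex. CD55 and CD59 sit on the cell's own membrane and hold the cascade back, CD55 by breaking up the enzymes that cleave C3 and CD59 by blocking the membrane attack complex. LCN2, which binds bacterial iron carriers, and the serum amyloid A proteins SAA1 and SAA2 belong to the acute-phase response, which is driven by interleukin 1 and interleukin 6 and is best known in liver but also runs in epithelia. SET7/9, encoded by SETD7, transfers a methyl group to lysines of histone and other proteins.

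The probes that carry the results are shown first, because a value on this array is a value of the 60 bases on the spot and not of a whole transcript. Positions are on GRCh37, as the files give them. The LCN2 probe lies on the plus strand at chr9:130914244-130914303. The CFB probe lies on the plus strand at chr6:31918992-31919147, and its 60 bases leave out 96 bases of that span, so it crosses a splice junction. Of the C3 probes, both on the minus strand, A_23_P101407 lies at chr19:6679177-6679434 and skips 198 bases, while A_33_P3347869 lies unbroken at chr19:6686136-6686195, nearer to the 5′ end of the gene. The brighter C1R probe is on the minus strand at chr12:7187836-7187895 and ends in the stop codon, in capitals. The SAA1 probe is on the plus strand at chr11:18290868-18291310 and skips 383 bases. SAA1 and SAA2 are near-identical copies, and signal on the SAA1 probe may hold RNA of either.
LCN2 A_23_P169437: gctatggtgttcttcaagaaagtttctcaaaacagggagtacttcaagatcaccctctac
CFB A_23_P156687: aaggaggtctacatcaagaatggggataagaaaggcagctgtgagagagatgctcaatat
C3 A_23_P101407: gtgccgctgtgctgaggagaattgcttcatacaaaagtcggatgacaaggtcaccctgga
C3 A_33_P3347869: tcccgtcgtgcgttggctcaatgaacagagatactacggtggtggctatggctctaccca
C1R A_33_P3393821: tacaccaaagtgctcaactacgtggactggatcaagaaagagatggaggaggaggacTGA
SAA1 A_24_P335092: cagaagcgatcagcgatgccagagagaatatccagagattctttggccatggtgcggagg

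The knockdown was first checked on its target. SETD7 probe A_24_P251841 had a log2 ratio of SET7/9 siRNA over negative control siRNA of -2.03 in MKN74 and -1.95 in MKN45, or -1.36 and -0.99 with normexp background correction and loess. A second SETD7 probe, A_33_P3255229, did not show it, with 0.24 and -0.23 and scanner errors of 0.22 and 0.21. The share of probes well above background in a channel ran from 54.7% to 66.6% over the arrays, and none of the gene spots was saturated. Of the lists that mark cell types, the 5 epithelial markers were all above background in Cy3 in both lines. Among the 5 hepatocyte markers 0 were so in MKN74 and 2 in MKN45, with ALB not detected in either line, and the leukocyte markers gave 2 and 3 of 5. The fibroblast markers gave 1 and 2 of 5, with COL1A2, COL3A1 and DCN not detected. The Cy3 signals of the hepatocyte markers with a probe detected on either array summed to 24.4 in MKN74 and 158 in MKN45. None of those signals was well above background in MKN74, and TTR gave 113 of the sum in MKN45. The leukocyte markers, taken in the same way, summed to 343 and 180 in Cy3. The corresponding Cy5 sums were 33 and 206, and 456 and 192. The fibroblast Cy3 sums were 186 and 65.2, with 176 and 82 in Cy5. In MKN74 the leukocyte Cy3 sum came mostly from CD68, at 284. Both samples were cultured gastric cancer cell lines, so these signals are not read as a share of other cell types. Their bearing on the results below was not tested.

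Detection differed between the lines. Processed signals in scanner units are given below, and a channel was called detected where the scanner software marked it well above background. In MKN74, 8 of the 13 probes were detected in at least 1 channel and 6 in both, covering 6 genes. In MKN45, 9 probes were detected in at least 1 channel and 8 in both, covering 7 genes. C3, C1R, C1S, CD55 and CD59 were detected in both lines. LCN2 and CFB were detected in MKN45 only, SAA1 in MKN74 only, and neither SAA2 probe in either line. One of the C1S probes, A_33_P3230478, was also dark on both arrays. In bulk RNA, fewer cells that express a gene and less of its RNA per cell cannot be told apart.

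**Figure D1:**
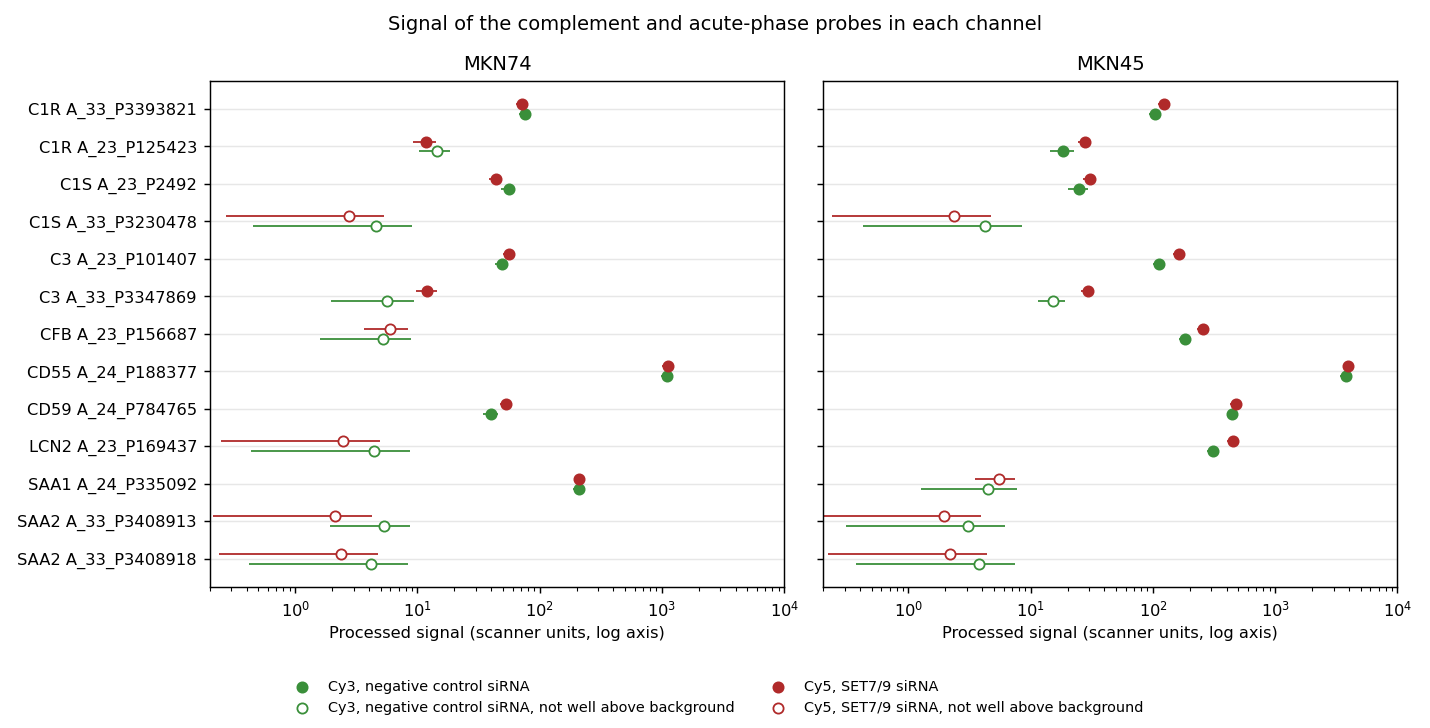
Processed signal of each of the 13 probes in scanner units on a log axis, with the Cy3 channel (negative control siRNA) in green and the Cy5 channel (SET7/9 siRNA) in red, for MKN74 at left and MKN45 at right. Filled points are well above background, open points are not, bars are the scanner's error of the signal cut short at the left where they reach 0, and LCN2 and CFB are filled at right and open at left while SAA1 is the reverse.

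Knockdown ratios are log2 of Cy5 over Cy3 after the scanner software's background and dye correction, and the error given is that software's own estimate for the spot. It covers the spot and the scan, not the spread between cultures, which 1 array per line cannot give. In MKN45 all 8 probes detected in both channels had a ratio above 0, where 49.7% of all probes detected that way did. Of these, 5 were higher by more than their own error and 0 lower, beside 12.1% and 11.9% of all probes. In MKN74, 4 of 6 were above 0 beside 48.4% of all probes, with 1 higher by more than its error and 1 lower beside 10.9% and 12.4%. With 1 probe per gene, the brightest detected, the median ratio was 0.30 over the 7 genes detected in MKN45 and 0.02 over the 6 genes detected in MKN74, against 0.015 and 0.005 over all genes detected in the same way. All 7 genes of MKN45 were also above 0 with normexp and loess, between 0.04 and 0.56, and with median centring, between 0.06 and 0.54. In MKN74, 3 of 6 were above 0 with normexp and loess, with a median of -0.02. The genes were chosen with these ratios known, and nothing is read from the counts against the background.

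Few members passed the study's cutoff of 1.5-fold, which is 0.585 on the log2 scale. Among probes detected in at least 1 channel, 2 of 9 were 1.5-fold higher in MKN45 and 0 lower, beside 4.81% and 1.97% of all such probes. In MKN74 it was 1 of 8 higher and 0 lower, beside 3.78% and 1.76%. With both channels detected the count was 1 of 8 higher and 0 lower in MKN45, beside 0.814% and 1.62%, and 0 of 6 either way in MKN74, beside 0.64% and 1.45%. The probes past the cutoff were C3 A_33_P3347869 in both lines and C1R A_23_P125423 in MKN45, and neither was the brighter probe of its gene. That C3 probe was detected only in Cy5, the SET7/9 siRNA channel, on both arrays. Cy5 was called detected from lower signals than Cy3, 9.96 against 17.4 in MKN74 and 8.89 against 15.9 in MKN45. LCN2 and the brighter C3 probe in MKN45 were the nearest below the cutoff. With normexp and loess 0 of 9 probes in MKN45 and 0 of 8 in MKN74 were past 1.5-fold. Of all such probes, 0.118% were then higher and 0.0788% lower in MKN45, and 0.208% each way in MKN74. The ratio of C1R A_23_P125423 in MKN45 was 0.09 with normexp and loess.

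**Figure D2:**
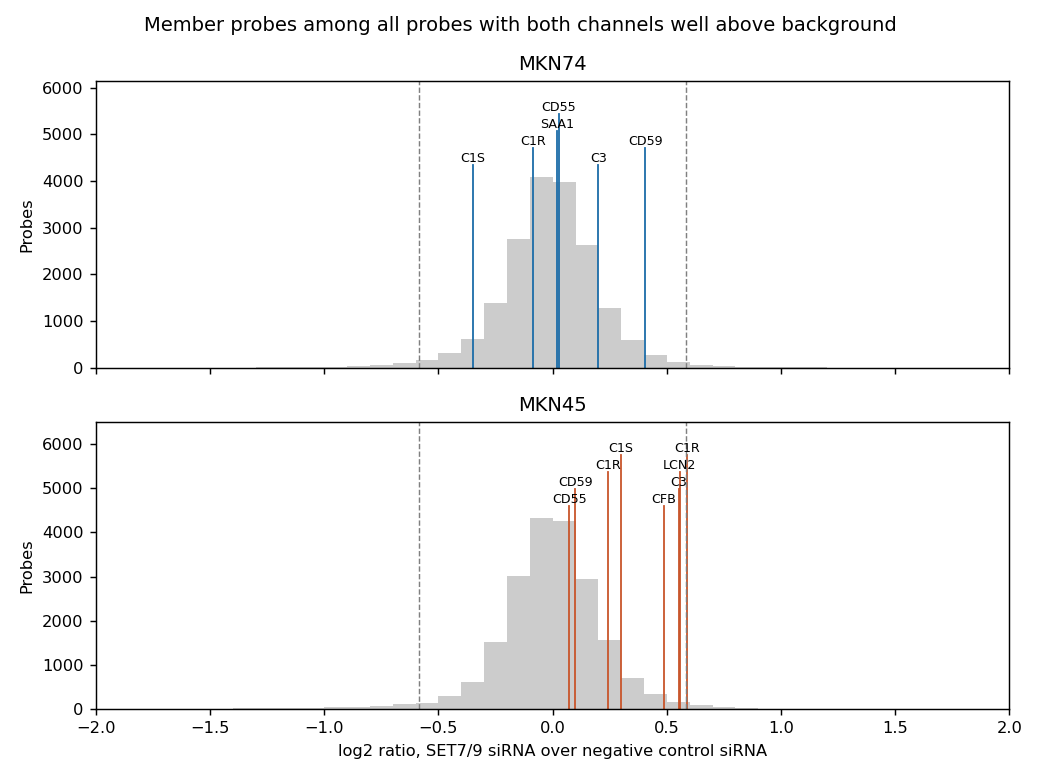
Number of probes (vertical axis) by log2 ratio of SET7/9 siRNA over negative control siRNA (horizontal axis) for all probes with both channels well above background, in grey, with each member probe of that kind as a line; dashed lines mark 1.5-fold. The 6 lines of MKN74 fall on both sides of 0, and the 8 lines of MKN45 all lie above it, between 0.07 and 0.59.

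The proteases of the classical pathway had written ratios of opposite sign in the lines on their brighter probes, but neither gene exceeded its error in both lines. C1R probe A_33_P3393821 read 76 in Cy3 and 71.7 in Cy5 in MKN74, and 104 and 123 in MKN45. The log2 ratios were -0.08 with an error of 0.22 and 0.24 with an error of 0.21, so that only the MKN45 value exceeded its error. The dimmer C1R probe A_23_P125423 read 14.4 and 11.7 in MKN74, where Cy3 was not well above background, and 18.4 and 27.7 in MKN45. Its ratios were -0.30 with an error of 0.53 and 0.59 with an error of 0.33. In MKN74 the dim Cy3 channel leaves the sign of that probe unmeasured. Both C1R probes were above 0 in MKN45, where the larger value came from the probe near the detection limit.

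C1S probe A_23_P2492 read 55.7 in Cy3 and 43.7 in Cy5 in MKN74, and 24.9 and 30.6 in MKN45. The C1S ratios were -0.35 with an error of 0.25 and 0.30 with an error of 0.31. Among probes detected in both channels, C1S was the only one below 0 by more than its error on either array, a call that ended with normexp and loess, where its ratios were -0.06 and 0.11. The difference of the C1S ratio, MKN45 minus MKN74, was 0.65 with a combined error of 0.40.

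C3, the component on which the pathways meet, was above 0 on its brighter probe in both lines. Probe A_23_P101407 read 48.9 in Cy3 and 56.2 in Cy5 in MKN74, and 111 and 162 in MKN45. These gave log2 ratios of 0.20 with an error of 0.24 and 0.55 with an error of 0.21, a fold of 1.47 in MKN45. The second C3 probe, A_33_P3347869, gave 1.08 with an error of 0.75 and 0.94 with an error of 0.35, from Cy3 signals of 5.63 and 15.2 that were not well above background and Cy5 signals of 12 and 29.2 that were. With a bound in place of the dim channel the MKN45 ratio of that probe was at least 1.88-fold higher after Aquantile scaling of the channels. That bound is open to dye bias, and neither a fold nor a direction can be given in MKN74. With normexp and loess the ratio written for the probe was 0.20 in MKN45 and 0.14 in MKN74. The size of the bound therefore depends on the processing. In MKN45 both C3 probes were above 0, with different sizes. The difference between the lines on the brighter probe was 0.35 with a combined error of 0.32.

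CFB, of the alternative pathway, read 183 in Cy3 and 256 in Cy5 in MKN45, a log2 ratio of 0.49 with an error of 0.21 and a fold of 1.40. In MKN74 its signals were 5.22 and 5.98, not well above background in either channel, and no knockdown ratio is given there.

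The membrane regulators had the brightest signals of their own probes in MKN45 and the smallest ratios there. CD55 read 1101 in Cy3 and 1122 in Cy5 in MKN74, and 3761 and 3953 in MKN45. Its ratios of 0.03 and 0.07 were both within the error of 0.20. CD59 read 39.9 and 52.8 in MKN74, and 444 and 476 in MKN45. The CD59 ratios were 0.41 with an error of 0.25 and 0.10 with an error of 0.21. CD59 was the only member whose detected ratio was larger in MKN74 than in MKN45 on a probe with both channels detected, by 0.31 with a combined error of 0.32.

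Of the acute-phase genes, LCN2 was read in MKN45 at 308 in Cy3 and 452 in Cy5, a log2 ratio of 0.56 with an error of 0.21 and a fold of 1.47. In MKN74 its signals were 4.39 and 2.47, below detection. SAA1 showed the reverse detection, with 209 and 211 in MKN74, a ratio of 0.02 with an error of 0.21, and 4.49 and 5.51 in MKN45, below detection. The signals of the SAA2 probes lay between 1.96 and 5.33 in all channels, below detection, and the ratio of -1.34 that the software wrote for A_33_P3408913 in MKN74 rests on no detected channel.

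**Figure D3:**
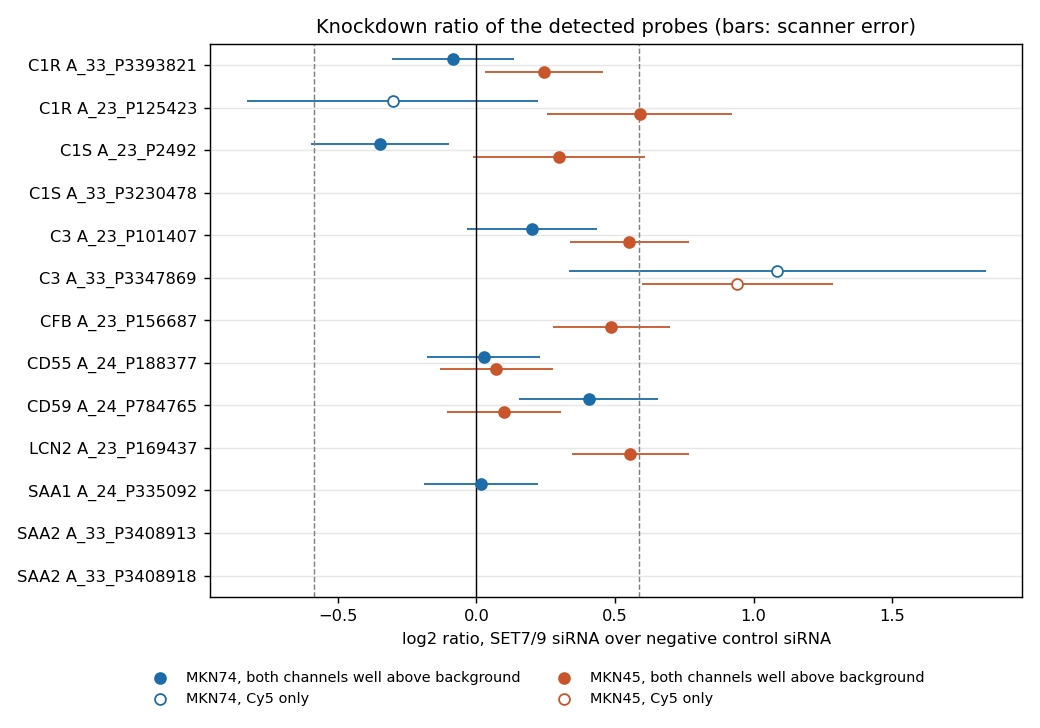
Log2 ratio of SET7/9 siRNA over negative control siRNA for each probe (rows), in MKN74 in blue and MKN45 in orange, with bars for the scanner's error, open points where only Cy5 was well above background, no point where neither channel was, and dashed lines at 1.5-fold. Orange points lie right of 0 in every row that has one, and blue points of C1R and C1S lie left of it.

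The level without knockdown was compared through the Cy3 channel, as log2 of the signal minus the 75th percentile of each array's probes, and within 1 probe at a time. Of the 5 member probes with Cy3 well above background on both arrays, 3 were at least 2-fold higher in MKN45 and 0 at least 2-fold lower, beside 16.9% and 17.5% of all such probes. CD59 was 12.7-fold higher in MKN45, a log2 difference of 3.66 with an error of 0.25, or 3.39 after Aquantile scaling and 2.19 with normexp. CD55 was 3.88-fold higher, a log2 difference of 1.96 with an error of 0.20. C3 was 2.57-fold higher on A_23_P101407, a log2 difference of 1.36 with an error of 0.24, but 0.95 after Aquantile scaling and 0.79 with normexp background correction, both short of 2-fold. C1R was 1.55-fold higher on A_33_P3393821, a log2 difference of 0.63 with an error of 0.22, but 0.23 after Aquantile scaling and 0.47 with normexp. The dimmer C1R probe had Cy3 detected in MKN45 only. Its bound there was at least 1.2-fold, but 0.652-fold after Aquantile scaling, so it gave no direction.

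C1S went the other way, with a level 1.97-fold higher in MKN74, a log2 difference of -0.98 for MKN45 minus MKN74 with an error of 0.33. That direction was not kept with normexp background correction, where the difference was 0.08. For the genes detected in 1 line only, the dim side was set to the lowest signal that any probe well above background had in Cy3 on that array. LCN2 was then at least 20.1-fold higher in MKN45 and CFB at least 11.9-fold higher in MKN45, while SAA1 was at least 11.6-fold higher in MKN74. After Aquantile scaling these bounds were 14.9, 8.43 and 17. With normexp, whose offset draws dim signals together, the log2 differences for MKN45 minus MKN74 were 2.19, 1.68 and -1.26, in the same directions and smaller than these bounds. Both membrane regulators, C3, CFB and LCN2 were thus higher in negative control MKN45 cells than in negative control MKN74 cells by these scales, and SAA1 lower.

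**Figure D4:**
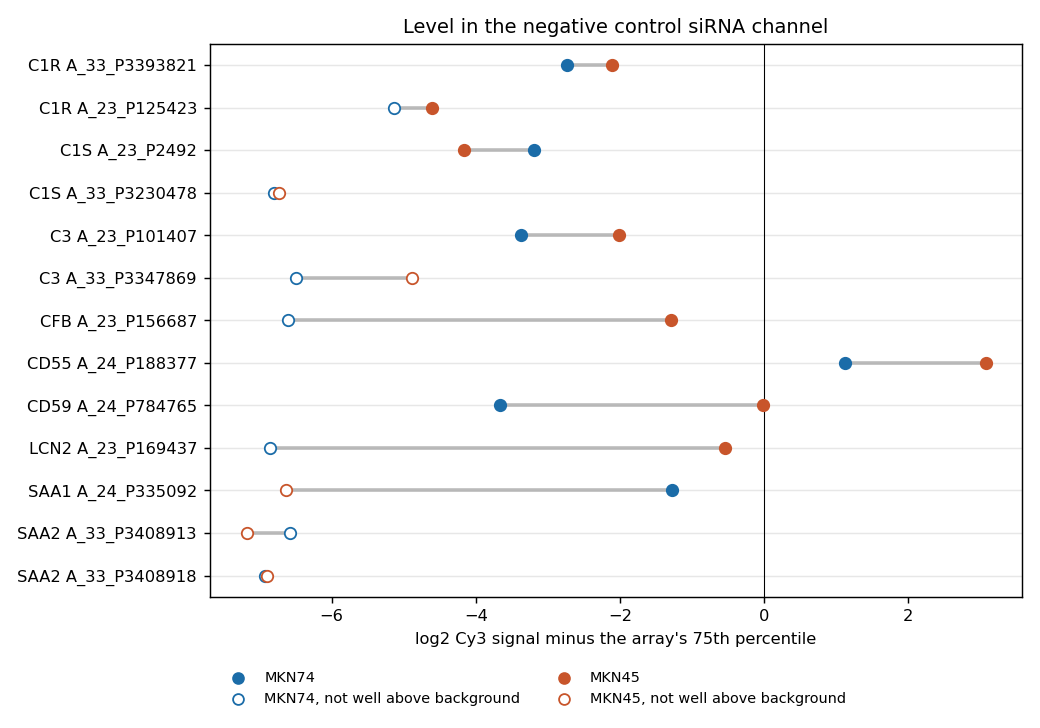
Level in the negative control siRNA channel, as log2 of the Cy3 signal minus the 75th percentile of the array (horizontal axis), for each probe (rows), in MKN74 in blue and MKN45 in orange, with open points where Cy3 was not well above background. A grey line joins the lines' values of a probe; the longest ones are those of LCN2, CFB and SAA1, each with an open point at its lower end, and CD59 has the longest among probes detected in both.

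LCN2 and CFB were the genes detected in MKN45 only, with knockdown ratios of 0.56 and 0.49 there. The 250 bases before the start of each gene are shown for that reason, from RefSeq on GRCh38.p14, which is not the build of the probe positions. LCN2 is at chr9:128149203-128149452 and CFB at chr6:31945845-31946094, both on the plus strand. Promoters of 5 of the 9 genes were in the table used, and C3, C1S, SAA1 and SAA2 had no entry. Capitals mark matches on either strand to letters known from sites of factors of the acute-phase response, namely GGGNNNNNCC and the stricter GGGANNTTCC for NF-kB, which overlap, TTNNGCAA for C/EBP and TTCNNNGAA for STAT.
LCN2: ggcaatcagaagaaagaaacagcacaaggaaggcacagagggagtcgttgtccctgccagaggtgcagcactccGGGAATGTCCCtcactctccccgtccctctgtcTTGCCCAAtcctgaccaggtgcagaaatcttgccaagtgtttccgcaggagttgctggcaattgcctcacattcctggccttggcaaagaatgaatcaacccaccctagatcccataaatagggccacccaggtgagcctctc
CFB: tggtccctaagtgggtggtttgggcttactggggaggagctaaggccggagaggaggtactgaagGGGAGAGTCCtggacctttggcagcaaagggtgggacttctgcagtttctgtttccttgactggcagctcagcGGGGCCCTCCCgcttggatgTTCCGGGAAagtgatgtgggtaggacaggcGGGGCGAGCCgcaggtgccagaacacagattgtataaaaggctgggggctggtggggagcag

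LCN2 held the stricter NF-kB letters on the minus strand, as GGGACATTCC, from base 175 to base 166 before the start, and a C/EBP match from base 143 to base 136. CFB held a STAT match, TTCCGGGAA, from base 92 to base 84, and looser NF-kB matches. The other 3 members with windows matched as well, C1R and CD59 with looser NF-kB, C/EBP and STAT letters in one window or another and CD55 with the looser NF-kB letters. Of the 35116 promoter windows of the same length in the table, 54.4% held the looser NF-kB letters, 1.4% the stricter ones, 9.05% the C/EBP letters and 6.57% the STAT letters. These are matches of letters only, and the looser NF-kB letters occur in most promoters.

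Other genes of complement and of the acute phase did not share one direction. For these lists each gene is given by its brightest detected probe, and only those with both channels well above background are counted. The shares of all probes measured in this way, for these counts, are those given above, 0.64% higher and 1.45% lower by 1.5-fold in MKN74, and 0.814% higher, 1.62% lower and 49.7% above 0 in MKN45. Of 23 other complement components, among them C2, C4B, C5 and the lectin pathway, 8 were measured so in MKN74 and 8 in MKN45. Their medians were 0.03 and -0.01, and 0 genes passed 1.5-fold in either line. C4A was not among the names on the array.

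Of 11 other complement regulators, 4 were measured in MKN74, with a median of 0.11 and 0 past the cutoff, and 6 in MKN45, with a median of -0.13 and 2 lower. VTN, which blocks assembly of the membrane attack complex, read 165 in Cy3 and 35.9 in Cy5 in MKN45. Its log2 ratio there was -2.20 with an error of 0.30, or -1.13 with normexp and loess. In MKN74 VTN read 13.5 and 24 and was detected in Cy5 only, with a written ratio of 0.83 and an error of 0.41. CFI, the protease that inactivates C3b and C4b, had -0.59 with an error of 0.22 in MKN45 and 0.06 in MKN74. The CFI value lay at the cutoff and was -0.38 with normexp and loess. The complement receptors gave 3 measured genes in MKN74 and 2 in MKN45, with medians of 0.06 and 0.19 and 0 past the cutoff.

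Among 18 other acute-phase proteins, 5 were measured in MKN74, with a median of -0.02, and 9 in MKN45, with a median of -0.16. In MKN45, 2 of the 9 had a ratio above 0. Several were dim there, with Cy3 signals of 17.7 for CRP, 19 for APCS and 23.4 for HP. The lowest detected signal on that array was 15.9 in Cy3 and 8.89 in Cy5. Whether this bears on their signs was not tested. Over the 10 genes detected in at least 1 channel in MKN45 the median was -0.15, or -0.03 with normexp and loess. SERPINA3, a protease inhibitor of the acute phase, was the 1 gene past 1.5-fold, from 104 in Cy3 to 163 in Cy5 in MKN45, with a log2 ratio of 0.65 and an error of 0.22, or 0.35 with normexp and loess. Its other probes, A_23_P162918 and A_23_P2920, gave 0.61 and 1.07 in MKN45, also above 0. In MKN74 the brightest SERPINA3 probe gave 0.04 and the others were dark. HP, ORM1 and CRP had -0.19, -0.24 and -0.35 in MKN45, with errors of 0.33, 0.21 and 0.40, so that only ORM1 lay below 0 by more than its error.

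Of 17 inducers of the acute phase, 13 were measured in each line, with medians of 0.05 in MKN74 and 0.09 in MKN45. IL1A, a cytokine that starts the response, was the 1 gene past the cutoff, with 44.3 in Cy3 and 81 in Cy5 in MKN74, a log2 ratio of 0.88 with an error of 0.25, or 0.45 with normexp and loess. It was not detected in MKN45. NFKBIA, the inhibitor of NF-kB and one of its targets, had 0.23 and 0.46, and SOCS3, a target and inhibitor of STAT3, had 0.42 and 0.26, all larger than their errors of 0.21 to 0.22. STAT3 itself had 0.00 and 0.09 on its brightest probe. Its second probe, A_23_P100795, gave -0.23 and -0.22, with both channels detected in both lines. IL1R1, the receptor for interleukin 1, had -0.23 and -0.50, with errors of 0.24 and 0.27. Its second probe, A_24_P200023, gave 0.19 and 0.37, without both channels detected in either line. CEBPB had -0.18 and -0.15, CEBPD -0.14 and -0.13, and NFKB1 0.05 and -0.02, all within their errors.

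**Figure D5:**
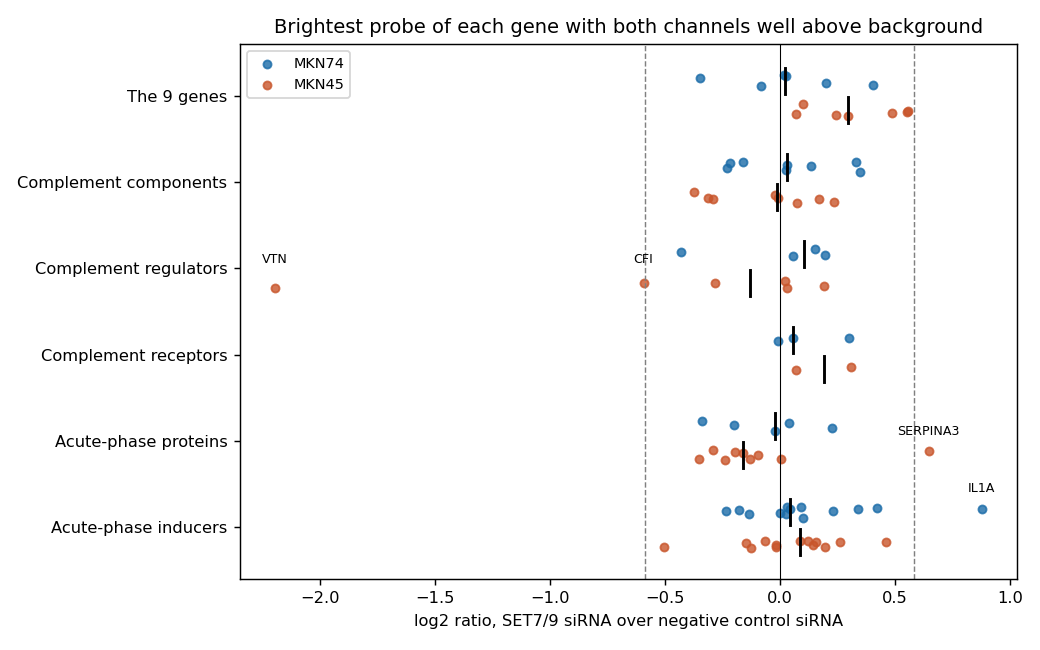
Log2 ratio of SET7/9 siRNA over negative control siRNA (horizontal axis) of the brightest probe of each gene with both channels well above background, in MKN74 in blue and MKN45 in orange, by gene list (rows), with black bars for medians, dashed lines at 1.5-fold and points spread vertically for view only. The 9 genes were chosen with their ratios known, and their medians cover 6 genes in MKN74, at 0.02, and 7 in MKN45, at 0.30. Medians of the other lists drawn, which leave out the cell type markers, lie between -0.16 and 0.19. VTN, CFI, SERPINA3 and IL1A are the named points past the dashed lines.

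Of the members measured in both channels on both arrays, C3 had the largest mean size of ratio, and the genes nearest to its pair of values were looked up among 13592 genes measured in the same way. By the distance between the pairs of log2 ratios the nearest named genes were SLC16A9 at 0.0149, with 0.21 in MKN74 and 0.54 in MKN45, PARP10 at 0.0365, with 0.16 and 0.55, and ZNF865 at 0.0407, with 0.18 and 0.52. The other two of the nearest 5 carried a transcript or probe identifier in place of a gene symbol. These distances were all smaller than the scanner errors of the C3 ratios, 0.24 in MKN74 and 0.21 in MKN45, so their order is not resolved. The likeness covers 2 arrays only.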

How the data were processed

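Two-colour arrays (Agilent human gene expression, 1 array per cell line, 2 in all) were read and processed by the authors with Agilent Feature Extraction 10.7.3.1 (per the file headers and the submitters' processing notes), with spatial and multiplicative detrending and linear and LOWESS dye normalization. The deposited scanner files give, for each spot, a log10 ratio (Cy5 relative to Cy3), an error estimate for it, and a background-subtracted, dye-normalized intensity in each channel. The deposited series table holds log2 ratios of the same arrays, of which 99.6% in MKN74 and 99.4% in MKN45 lay within 0.01 of the scanner value.

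Control and outlier spots were left out, log10 ratios and their errors were turned to log2, and spots of a probe were averaged. Each of the 13 member probes had 1 spot per array. A probe was kept where at least 50% of its spots were well above background in 1 channel. A gene was represented by its brightest kept probe, probes kept on both arrays first. The cutoff was 1.5-fold for knockdown and 2-fold for Cy3 levels between lines, and every other gene named from the lists passed 1.5-fold with both channels detected or is an example of its list chosen after its values were seen. The genes near C3 were the 5 at the smallest Euclidean distance. All 13 accessions of the member probes matched the RefSeq gene table. Members and lists were chosen with earlier results of these data known. No p-value is given, since each condition has 1 array, and the number of arrays limits the precision. Alternatives used normexp background correction (offset 50) with loess, and Aquantile scaling, in limma 3.58.1 under R 4.3.3, besides other filters, summaries and cutoffs. Counting and averaging (Python 3.11.15, pandas 2.3.3) were tested on simulated data.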

Additional observations from a re-analysis of the deposited data

Results flagged for a closer look

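The log2 ratios written for C1R and C1S had opposite signs in the lines, below 0 in MKN74 and above 0 in MKN45. None of their probes exceeded its own error in both lines. The difference, MKN45 minus MKN74, was 0.65 for C1S probe A_23_P2492, 0.33 for C1R probe A_33_P3393821 and 0.89 for C1R probe A_23_P125423, with combined scanner errors of 0.40, 0.31 and 0.62. For the last of these probes Cy3 was not well above background in MKN74, so neither its sign there nor the size of the difference was measured. With normexp and loess the C1S ratios were -0.06 in MKN74 and 0.11 in MKN45. With 1 array per line the difference was not tested.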

How the results depend on the processing

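The number of member probes 1.5-fold higher in MKN45 was 2 by the processing reported, beside 4.81% of all probes. It was 0 with normexp and loess, beside 0.118%, and 0 at a 2-fold cutoff, beside 1.91%. With median centring it was 1, beside 4.63%, from C3 A_33_P3347869 at 0.93, while C1R A_23_P125423 fell to 0.575. It was also 1 with both channels required, beside 0.814%, and in the deposited table, beside 0.808%. There it came from C1R A_23_P125423 at 0.59. In MKN74, where it was 1 beside 3.78%, it was 0 with normexp and loess, beside 0.208%. It was also 0 with both channels required and in the deposited table, each beside 0.64%. The count of 1.5-fold lower probes in MKN74 rose from 0 to 1 with no filter, from an undetected SAA2 probe. The share of all probes rose from 1.76% to 6.35%. The number with a Cy3 level 2-fold lower in MKN45 was 1 with Aquantile scaling (C1S, -1.70) in place of 0, beside 20.7% and 17.5% of all probes. The C1S difference turned from -0.98 to 0.075 with normexp. Medians of the member genes moved by less than the scanner error, between 0.16 and 0.42 in MKN45 and between -0.02 and 0.03 in MKN74. C3 in MKN74 was 0.64 as the mean of its probes and 0.20 on its brightest probe. C1S in MKN74 was -0.06 and C3 in MKN45 0.33 with normexp and loess, the cause of which was not tested. No paired analysis was possible because each cell line has 1 array. Dim channels limit LCN2 and CFB in MKN74, SAA1 in MKN45 and SAA2 in both.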
